A study of Mus musculus with 13 samples.

Results

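Genes of the subunits of glutamate and GABA receptors were examined in mouse retrosplenial cortex, an area of the cortical midline. They were taken by name, as every gene of the deposited tables whose symbol begins with Gria, Grid, Grik or Grin and a number, with Gabra, Gabrb, Gabrg, Gabrd, Gabre, Gabrp, Gabrr, Gabrt or Gabrq, or that is Grm with 1 digit, Gabbr1 or Gabbr2. The rule found 37 genes among the 15114 genes of a table of dissociated neurons and 49 among the 32285 genes of a table of brain sections, and all 37 were in both. These genes are called members below. The names include 2 that are not subunits, both in the section table only. The neurons formed 1 group: 765 cells in 11 samples from 3 animals, from wild-type B6 mice with no treatment named, microdissected, dissociated and pooled across acute slices. The sections were 2 flash-frozen 10 µm cryosections of wild-type brain on Visium slides, called S4 and S8 here, where a spot covers a small area that can hold several cells. The labels do not say which labelled section is S4, and name neither the age of the mice nor any animal shared between the assays. The sections shared 162 spot barcodes, which on these slides stand for positions.

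Glutamate acts on ionotropic receptors (AMPA, kainate and NMDA receptors), whose subunits form a cation channel, and on metabotropic receptors (mGlu), which act through G proteins. GABA acts on GABA-A receptors, chloride channels usually built of alpha and beta subunits with a gamma or a delta subunit, and on GABA-B receptors, which are G protein-coupled dimers. Which subunits a cortical neuron makes sets the kinetics, calcium permeability, drug sensitivity and synaptic or extrasynaptic place of its receptors.

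The neurons held 10754092, 45217704 and 60308279 counts in animals 1, 2 and 3, with a median of 138331 per cell, and the sections held 8436518 (S4) and 6389042 (S8). The 37 genes took 0.477% of the counts of neurons, and a cell held counts of a median of 22 of them (8 to 31). The gene of the vesicular glutamate transporter Slc17a7 had a count in 756 of the 765 cells, while Gad1, which makes GABA, stood at 0.668 CPM or lower and Gad2 at 0.779 CPM or lower in every cluster of the comparison below (CPM are counts scaled to a common library total). Cells were clustered without the receptor genes, so that these genes did not draw the groups in which they are compared. Of 12 clusters, 8 with at least 10 cells in each of 2 or 3 animals were compared, in 21 sums of counts per animal and cluster. Clusters 1 (205 cells, led by Calb1), 2 (121, Scnn1a and Tnnc2), 3 (79, Nrtn and Tns1), 4 (73, layer 6 IT-like, that is, of intratelencephalic type) and 5 (71, Rprm and Syt6) were in 3 animals. Cluster 6 (67, Il1rapl2 and Ptprm) and cluster 8 (36, Cxcl14 and Calb1) entered from animals 2 and 3 only. Animal 1 gave them 5 and 3 cells, which were left out, and cluster 8 had a low median of 72112 counts per cell. Cluster 7 (61, layer 5 extratelencephalic-like, led by C1ql2 and Mc4r, all posterior) entered from animals 1 and 2 only. Its 1 cell of animal 3 was left out. Summed markers of astrocytes stood at 13.4 CPM or lower in these clusters, and those of oligodendrocytes ranged from 37.6 CPM in cluster 8 to 218 CPM in cluster 7. Summed markers of inhibitory neurons reached 159 CPM in cluster 2 and 109 CPM in cluster 3, nearly all of it Pvalb (157 and 106 CPM), against 1.80 to 13.99 CPM in the other 6. Those of endothelial and mural cells were highest in cluster 5 (14.03 CPM), whose leading genes also include Ighm and the smooth muscle genes Acta2, Myl9 and Myh11. The part of these markers in the differences below was not tested.

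Neuron clusters differed at least 2-fold in AMPA, kainate, metabotropic glutamate and GABA-A alpha and delta subunits, among them cluster 2, where Grik1, Gabrd, Grm4, Grm7 and Gria4 were higher and Gria1, Gria3 and Grik3 were lower. The obligatory NMDA subunit and both GABA-B subunits did not pass the test over all clusters. With edgeR's quasi-likelihood test, 17 of the 35 members tested were called in at least 1 cluster, that is, had a Benjamini-Hochberg adjusted p under 0.05 and differed at least 2-fold from the mean of the other clusters, against 18.8% of all 13295 genes tested. In the test over all clusters together 21 of the 35 passed, against 18.9% of all genes. Called members were 3 of 4 AMPA, 3 of 5 kainate, 0 of 4 NMDA, 6 of 7 metabotropic glutamate, 4 of 11 GABA-A and 0 of 2 GABA-B subunits. Of the last named 2, 1 had an unadjusted p under 0.05 in a cluster with edgeR, and DESeq2 called 0. Grin2d and Gabrg1 had too few counts to be tested. The 39 calls were 19 higher and 20 lower, and 9 members were called higher in 1 cluster and lower in another. Cluster 2 had 6 members called higher and 5 lower, against 5.11% and 2.17% of all genes. Cluster 5 had 1 called higher and 5 lower, against 3.06% and 2.18%. In cluster 4, 4 were higher and 2 lower, against 3.69% and 1.55%, and in cluster 7, 3 were higher and 2 lower, against 1.75% and 1.03%. In cluster 1, 2 were higher and 2 lower, against 3.22% and 0.557%, and in cluster 3, 1 was higher and 2 lower, against 2.66% and 0.985%. Cluster 6 had 1 each way, against 1.35% and 0.263%, as did cluster 8, against 2.16% and 2.49%. Cluster 2 thus held the most calls of the 8, 31.4% of the members tested, and also the largest share over all genes, 7.28%. In cluster 7 these shares were 14.3% and 2.78%. The median log2 fold change of the 35 members was 0.20 in cluster 2 and -0.16 in cluster 5, beside 0.11 and -0.00036 over all genes.

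**Figure D1:**
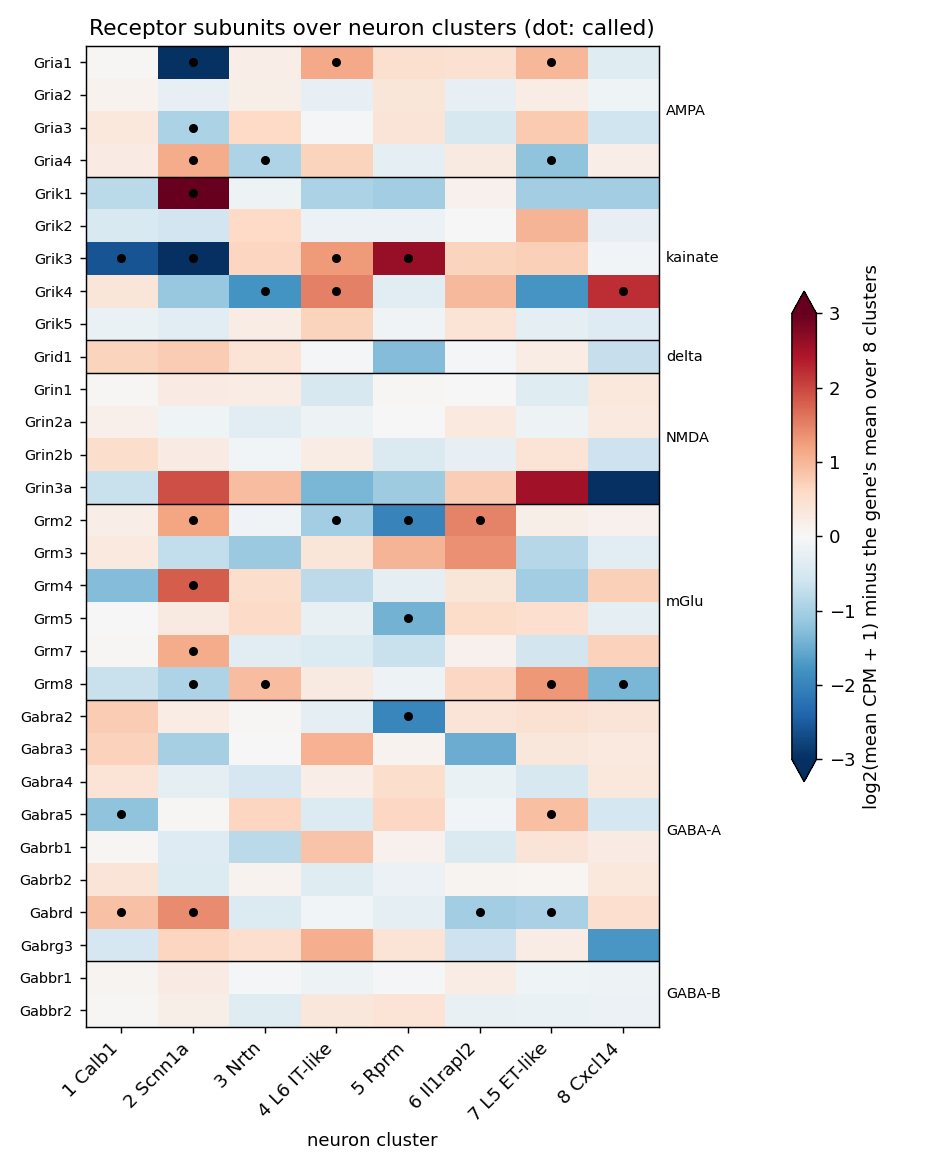
Levels of 30 tested receptor genes (rows, by family) in 8 neuron clusters (columns), as log2(mean CPM + 1) minus the gene's mean over the clusters, with the color scale ending at 3 either way; a dot marks a call. Cluster 2 held the most dots, and the rows of Gabbr1, Gabbr2, Grin1 and Grin2a held none.

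RefSeq promoter sequences (build GRCm38.p6, 250 bases before to 50 after the start of the gene) were given for 34 of the 49 members. The sequences of 4 called members are shown, since their levels set clusters 2 and 5 apart: Gria4 and Grm2 were higher in cluster 2, Grm2 and Gabra2 were lower in cluster 5, and Grik3 was lower in cluster 2 and higher in cluster 5. Capitals mark GGGCGG on either strand, the letters bound by Sp1-type factors, and all are written 5′ to 3′ on the strand of the gene.
Gria4 (chr9:4796185-4796484, minus strand): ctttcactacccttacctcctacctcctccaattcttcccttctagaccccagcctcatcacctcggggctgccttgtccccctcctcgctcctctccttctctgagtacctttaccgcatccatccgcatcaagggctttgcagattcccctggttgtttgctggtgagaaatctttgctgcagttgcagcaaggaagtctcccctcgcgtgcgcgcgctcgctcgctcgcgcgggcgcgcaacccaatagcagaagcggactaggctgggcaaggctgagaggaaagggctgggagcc
Grik3 (chr4:125490446-125490745, plus strand): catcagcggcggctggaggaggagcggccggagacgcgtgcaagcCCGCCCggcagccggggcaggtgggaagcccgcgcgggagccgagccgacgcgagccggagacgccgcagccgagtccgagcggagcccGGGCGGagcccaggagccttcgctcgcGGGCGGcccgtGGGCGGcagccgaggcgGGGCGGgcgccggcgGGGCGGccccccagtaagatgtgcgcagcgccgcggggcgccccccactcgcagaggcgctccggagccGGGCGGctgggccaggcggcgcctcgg
Grm2 (chr9:106656060-106656359, minus strand): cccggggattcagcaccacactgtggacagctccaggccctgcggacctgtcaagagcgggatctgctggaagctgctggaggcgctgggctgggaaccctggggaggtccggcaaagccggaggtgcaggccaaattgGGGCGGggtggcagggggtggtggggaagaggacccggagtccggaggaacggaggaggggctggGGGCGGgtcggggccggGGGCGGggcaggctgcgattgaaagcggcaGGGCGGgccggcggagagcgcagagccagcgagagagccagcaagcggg
Gabra2 (chr5:71095800-71096099, minus strand): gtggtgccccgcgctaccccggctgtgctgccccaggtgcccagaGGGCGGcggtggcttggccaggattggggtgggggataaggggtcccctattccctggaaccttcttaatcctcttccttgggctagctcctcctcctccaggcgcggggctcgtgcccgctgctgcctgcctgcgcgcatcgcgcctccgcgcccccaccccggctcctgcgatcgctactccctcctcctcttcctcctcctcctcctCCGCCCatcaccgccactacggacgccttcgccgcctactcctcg

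GGGCGG was present 7 times in the Grik3 window, 4 times in that of Grm2, 2 times in that of Gabra2 and 0 times in that of Gria4, and 35.7% of the 32851 windows of that table held it. The GC content was 82.0%, 72.0%, 70.0% and 59.7% in the same order. The cyclic AMP response element TGACGTCA (1.79% of all windows) and the TATA box letters TATAAA (13.6%) were in none of the 4. The E-box CANNTG, present in 72.3% of all windows, occurred once in the windows of Gria4, Grik3 and Gabra2 and 0 times in that of Grm2. Each motif was searched on both strands, and matches of different motifs may share bases. A match is a run of letters and not a measured binding site.

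The AMPA receptor mediates fast excitation. Gria1 stood at 11.4, 14.1 and 5.29 CPM in cluster 2 of animals 1, 2 and 3, below every sum of the other clusters (21.7 to 217 CPM). Its log2 fold change there was -3.56 (SE 0.32, edgeR adjusted p = 3.35e-07; lower in 3 of 3 animals). It was higher in cluster 4 (198, 217 and 165 CPM; edgeR adjusted p = 0.00028, log2 fold change 1.39, SE 0.21) and in cluster 7 (171 and 181 CPM in animals 1 and 2; log2 fold change 1.03, SE 0.27). The values of clusters 4 and 7 overlapped each other. The call in cluster 7 was lost with DESeq2, whose log2 fold change was 0.9999, with clusters drawn from all genes (edgeR adjusted p = 0.0724), without the 77 shallowest cells (0.107) and with sums per sample in place of animals (0.682). Gria4, a subunit of rapid channel kinetics, took the opposite place: it stood at 136 ± 20.5 CPM in cluster 2 (n = 3, SD), with a mean of 61.4 CPM in the other clusters (edgeR adjusted p = 0.000255, log2 fold change 1.30, SE 0.21). It was lower in clusters 3 (32.3 ± 10.6 CPM, n = 3; log2 fold change -1.09) and 7 (26.4 ± 17.3 CPM, n = 2; -1.40). Without animal 3 these calls were lost, at edgeR adjusted p = 0.304 and 0.0685, as they were with sums per sample (0.827 and 0.0814). Gria3 stood at 155 ± 10.96 CPM in cluster 2 (n = 3) against 346 CPM elsewhere (edgeR adjusted p = 1.95e-05, log2 fold change -1.08, SE 0.14). Gria2, whose edited subunit makes the channel calcium-impermeable, varied within a narrower span, from 852 ± 53.2 CPM in cluster 6 (n = 2) to 1313 ± 48.2 CPM in cluster 5 (n = 3). It passed the test over all clusters (edgeR adjusted p = 1.3e-05) and in no cluster reached 2-fold. The log2 ratio of Gria1 to Gria4, which depends on the lengths of the transcripts and is compared between clusters only, was -3.83 ± 0.90 in cluster 2 and 2.91 ± 0.97 in cluster 7, and between -0.52 and 1.65 in the other 6.

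Kainate receptors act before and after the synapse, and 3 of their 5 subunits were called. Grik1, which forms channels of its own, stood at 57.2, 64.7 and 60.4 CPM in cluster 2 of animals 1, 2 and 3, with 1386 counts, and the other 7 clusters together held 42 counts. The highest of the other sums was 2.54 CPM. The mean of cluster 2, 60.8 ± 3.74 CPM (SD, n = 3), was 182 times the mean of the other clusters, 0.334 CPM (edgeR adjusted p = 8.18e-07; higher in 3 of 3 animals). Fitted fold changes of Grik1 and Grik3 are not given, since other clusters held 3 counts or fewer. Grik3 had the reverse place: in cluster 2 it had 3 counts in all, which is 0.528% of the mean level elsewhere (95% counting interval 0.109% to 1.54%; edgeR adjusted p = 0.00111). In cluster 1 it stood at 0, 1.58 and 1.60 CPM in animals 1, 2 and 3 (edgeR adjusted p = 0.0419), low in all 3. In cluster 5 it stood at 96.7, 63.7 and 66.3 CPM, above every other sum (0 to 33.9 CPM), and its mean of 75.6 CPM was 5.41 times that of the other clusters (edgeR adjusted p = 0.000269). Cluster 4 followed with 27.4, 25.9 and 33.9 CPM and was also called higher (edgeR adjusted p = 0.0400). The calls of Grik3 in clusters 2 and 5, and that of Grik1, were made under every alternative that gave a value. That in cluster 1 was lost under 4 of 12 alternatives, without animal 1, 2 or 3 (edgeR adjusted p = 0.32, 0.0943 and 0.097) or the 77 shallowest cells (0.0772). That in cluster 4 was lost under 3 of 11, without animal 1 or 3 (edgeR adjusted p = 0.0584 and 0.0691) or those cells (0.116).

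Grik4, a high-affinity kainate subunit that needs a partner to form a channel, was higher in cluster 8 (21.2 and 54.3 CPM in animals 2 and 3; edgeR adjusted p = 0.00192, log2 fold change 3.30, SE 0.59). It was higher in cluster 4 (38.3, 19.0 and 10.8 CPM in animals 1, 2 and 3; log2 fold change 1.86, SE 0.50) and lower in cluster 3 (2.04, 1.90 and 0.254 CPM; log2 fold change -2.84, SE 0.72). Values of clusters 4 and 8 overlapped those of other clusters. The call in cluster 4 was lost under 3 of 11 alternatives, without animal 1 or 2 (edgeR adjusted p = 0.431 and 0.0582) or the 77 shallowest cells (0.242). That in cluster 3 was lost under 4 of 12, without animal 1, 2 or 3 (edgeR adjusted p = 0.0587, 0.169 and 0.436) and with sums per sample (1.00). Grik2 and Grik5 were not called in any cluster.

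**Figure D2:**
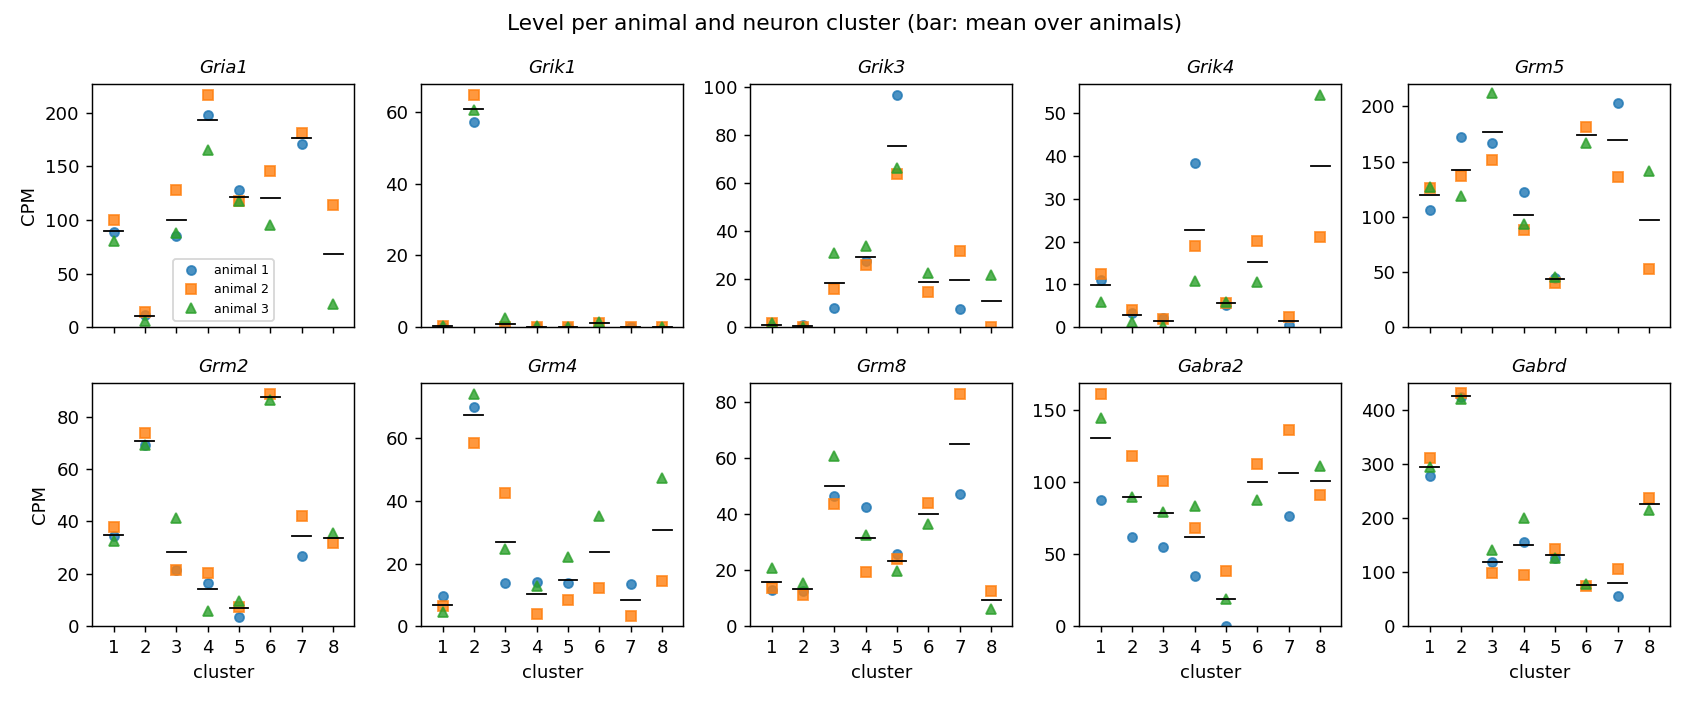
Level in CPM (linear axes from 0) of 10 called members in each of the 8 neuron clusters, 1 symbol per animal, with a bar at the mean over animals. Grik1 stood above 57 CPM in cluster 2 alone, and Grik3 stood at 63.7 CPM or more in cluster 5.

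NMDA receptors need glutamate together with glycine or serine and carry calcium. Their obligatory subunit Grin1 ranged from 178 ± 27.7 CPM in cluster 4 (SD, n = 3) to 309 ± 78.2 CPM in cluster 8 (n = 2), and did not pass the test over all clusters (edgeR adjusted p = 0.0684). Its difference in cluster 4 alone had an adjusted p of 0.0402 and stayed under 2-fold (log2 fold change -0.53, SE 0.15, edgeR). Grin2a, the subunit that dominates in the mature forebrain, ranged from 92.4 ± 21.8 CPM in cluster 3 to 141 ± 31.5 CPM in cluster 6 (edgeR adjusted p = 0.253 over all clusters). Grin2b, which slows the decay of the current, passed that test (edgeR adjusted p = 0.00359), with its highest level, 285 ± 95.4 CPM (n = 3), in cluster 1 and its lowest, 127 ± 1.52 CPM (n = 2), in cluster 8. The log2 ratio of Grin2a to Grin2b was -1.35 ± 0.10 in cluster 7 and 0.13 ± 0.25 in cluster 8 (SD, n = 2). Of the NMDA members, 0 of 4 were called in a cluster with edgeR, although all 4 had an unadjusted p under 0.05 in at least 1 cluster. DESeq2 called 1 of them, Grin3a, higher in clusters 2 and 7 and lower in cluster 8 (adjusted p = 0.0265, 0.0417 and 0.0134).

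Metabotropic glutamate receptors fall into group I (such as Grm5), which raises calcium through phospholipase C, and groups II (Grm2 and Grm3) and III (Grm4, Grm6, Grm7 and Grm8), which lower cyclic AMP and often sit on terminals. All 7 members in the cell table passed the test over all clusters, and Grm3 was not called in any. Grm5 stood at 44.9, 40.1 and 45.3 CPM in cluster 5, below every other sum (52.9 to 212 CPM; edgeR adjusted p = 0.000104, log2 fold change -1.66, SE 0.23).

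Grm2 was higher in clusters 6 and 2 and lower in clusters 5 and 4. It stood at 88.6 and 86.2 CPM in cluster 6 of animals 2 and 3, above every other sum (up to 73.6 CPM; edgeR adjusted p = 0.00841, log2 fold change 1.67, SE 0.33). Cluster 2 followed with 69.1, 73.6 and 69.1 CPM in animals 1, 2 and 3 (edgeR adjusted p = 0.00224, log2 fold change 1.42, SE 0.29). In cluster 5 it stood at 3.45, 7.51 and 9.51 CPM (edgeR adjusted p = 0.0011, log2 fold change -2.32, SE 0.41), and in cluster 4 at 16.4, 20.4 and 5.83 CPM (log2 fold change -1.28, SE 0.37). Clusters 4 and 5 overlapped. Without animal 2 the call in cluster 5 was lost (edgeR adjusted p = 0.0915), and that in cluster 4 was lost under 5 of 11 alternatives: without animal 1, 2 or 3 (0.125, 0.242 and 0.641), without the 77 shallowest cells (0.0766) and with only the clusters found in all animals (0.19). With sums per sample in place of animals, the calls in clusters 2 and 6 were lost (edgeR adjusted p = 0.196 and 0.132).

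Of the group III receptors, Grm4 stood at 69.95, 58.6 and 74.2 CPM in cluster 2, above every other sum (up to 47.3 CPM; edgeR adjusted p = 0.000645, log2 fold change 2.21, SE 0.39). Grm7, a low-affinity receptor of presynaptic active zones, stood at 202 ± 16.99 CPM in cluster 2 (n = 3, SD), with 87.5 CPM elsewhere, again above every other sum (edgeR adjusted p = 7.87e-05, log2 fold change 1.29, SE 0.18). Grm8 went the other way in that cluster, at 12.7, 11.3 and 15.3 CPM (log2 fold change -1.10, SE 0.34), but that call was lost under 7 of 12 alternatives, among them the omission of animal 1, 2 or 3 (edgeR adjusted p = 0.336, 0.211 and 0.0902). Grm8 was higher in cluster 7 (47.1 and 83.2 CPM in animals 1 and 2; edgeR adjusted p = 0.0111, log2 fold change 1.58, SE 0.34) and in cluster 3 (46.4, 43.6 and 60.8 CPM; log2 fold change 1.11, SE 0.29), and lower in cluster 8 (12.4 and 6.20 CPM in animals 2 and 3; log2 fold change -1.65, SE 0.46). The values of clusters 3 and 7 overlapped. The call in cluster 3 was lost under 4 of 12 alternatives: without animal 2 or 3 (edgeR adjusted p = 0.077 and 0.292), with sums per sample (0.993) and without cluster 8 (0.0602). That in cluster 8 was lost under 2 of 7, without animal 1 (edgeR adjusted p = 0.118) and without the 77 shallowest cells (0.0501), and that in cluster 7 under 1 of 9, with sums per sample (0.22).

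In GABA-A receptors the alpha subunit sets drug sensitivity and the delta subunit takes the place of gamma in extrasynaptic receptors. Gabrd, the delta subunit, stood at 423, 431 and 421 CPM in cluster 2 of animals 1, 2 and 3, above every other sum (55.6 to 311 CPM; edgeR adjusted p = 6.72e-07, log2 fold change 1.63, SE 0.15). Cluster 1 followed with 277, 311 and 295 CPM (edgeR adjusted p = 0.000506, log2 fold change 1.02, SE 0.16). It was lower in cluster 6 (73.5 and 78.8 CPM in animals 2 and 3; log2 fold change -1.26, SE 0.24) and in cluster 7 (55.6 and 105 CPM in animals 1 and 2; log2 fold change -1.05, SE 0.24), which overlapped. Without animal 1 or 2, or with only the clusters found in all animals, the change in cluster 1 fell under 2-fold (log2 fold change 0.94, 0.63 and 0.75), as did that in cluster 7 with sums per sample or without cluster 8 (-0.97 in each).

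Gabra2 and Gabra5 are alpha subunits. Gabra2 stood at 0, 38.3 and 19.0 CPM in cluster 5 of animals 1, 2 and 3, against a mean of 95.4 CPM elsewhere (edgeR adjusted p = 0.000349, log2 fold change -2.20, SE 0.35). This call was made under every alternative that gave a value, although the 38.3 CPM of animal 2 lay above the lowest of the other sums (35.1 CPM). Gabra5, the alpha subunit of tonic inhibition in the hippocampus, was lower in cluster 1 (30.4 ± 5.09 CPM, n = 3; edgeR adjusted p = 0.00289, log2 fold change -1.38, SE 0.26) and higher in cluster 7 (a mean of 134 ± 15.1 CPM with n = 2; log2 fold change 1.06, SE 0.27). The first call was lost under 1 of 12 alternatives, without animal 2 (edgeR adjusted p = 0.0535). The second was lost under 4 of 9: without animal 3 (edgeR adjusted p = 0.128), with sums per sample (0.692), without the 77 shallowest cells (0.0889) and without cluster 8 (0.0503). The beta subunit Gabrb2 ranged from 180 ± 14.9 CPM in cluster 2 to 309 ± 34.7 CPM in cluster 1 and did not pass over all clusters (edgeR adjusted p = 0.0875). The GABA-B subunits Gabbr1, which binds GABA, and Gabbr2, which couples to the G protein, did not pass either (edgeR adjusted p = 0.47 and 0.135). Their highest cluster mean was 1.32 and 1.70 times the lowest.

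Auxiliary subunits and scaffolds of the same receptors gave a list of 39 genes, of which 33 were tested, 8 varied over all clusters (18.9% of the 13295 genes tested did) and 8 were called in a cluster (18.8% of those genes were). Cnih3, a cornichon that slows AMPA receptor kinetics, stood at 5.19 ± 4.67 CPM in cluster 1 (n = 3, SD), with 83.3 CPM elsewhere (edgeR adjusted p = 0.00178, log2 fold change -3.47, SE 0.63). Gsg1l, an auxiliary subunit that dampens AMPA receptors, stood at 98.96 ± 11.6 CPM in cluster 1 (edgeR adjusted p = 0.000377, log2 fold change 2.87, SE 0.44) and at 1.22 ± 0.98 CPM in cluster 2 (edgeR adjusted p = 0.000553, log2 fold change -4.55, SE 0.78). Cacng2, also known as stargazin, was higher in cluster 2 (130 ± 24.4 CPM; edgeR adjusted p = 0.000145, log2 fold change 1.06, SE 0.16), but under 2-fold in 4 of 12 alternatives, among them without animal 1 or 2 (log2 fold change 0.92 and 0.84). Cacng3 was lower in cluster 5 (118 ± 39.5 CPM against 298 CPM; edgeR adjusted p = 8.89e-05, log2 fold change -1.27, SE 0.18). Grip1, a scaffold of AMPA receptors, stood at 23.8 ± 16.9 CPM in cluster 5 against 3.92 CPM, with 1 count in cluster 8, and its call was lost without animal 2 (edgeR adjusted p = 0.0916) or the 77 shallowest cells (0.0673). Homer2, a scaffold of group I metabotropic receptors, was called higher in cluster 1 and lower in clusters 2 and 5. These calls were lost under 2 of 12, 3 of 12 and 4 of 11 alternatives. Each was lost without animal 1 (edgeR adjusted p = 0.137, 0.156 and 0.193), that in cluster 2 also without animal 2 (1.00) and that in cluster 5 also without animal 3 (0.271).

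Along the anterior to posterior axis, no member was called. In all neurons together, summed per animal and level, 0 of 35 members were called between the posterior and anterior levels (edgeR; 3 at an unadjusted p under 0.05, and 0 called by DESeq2), against 0.103% of 13628 genes. Between the medium and anterior levels 0 of 35 were called (edgeR; 3 at an unadjusted p under 0.05, and 0 by DESeq2), against 0.00734%. Fold changes of the members ranged from -0.91 to 0.93 on the log2 scale for posterior and from -0.74 to 1.18 for medium, with a median SE of 0.19 in each. Named after its values were seen, Grik2 stood at 29.8, 31.9 and 27.2 CPM at the posterior level of animals 1, 2 and 3 and at 17.4, 14.3 and 15.3 CPM at the anterior level, with groups that did not overlap, and an edgeR adjusted p of 0.697. Cluster 7 was all posterior, so the make-up of the cells differed between the levels. Within cluster 4, the only cluster with at least 5 cells of each animal at both levels, 0 of 31 members were called (edgeR; 2 at an unadjusted p under 0.05, and 0 by DESeq2), against 0.0115% of 8675 genes, with a median SE of 0.46.

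**Figure D3:**
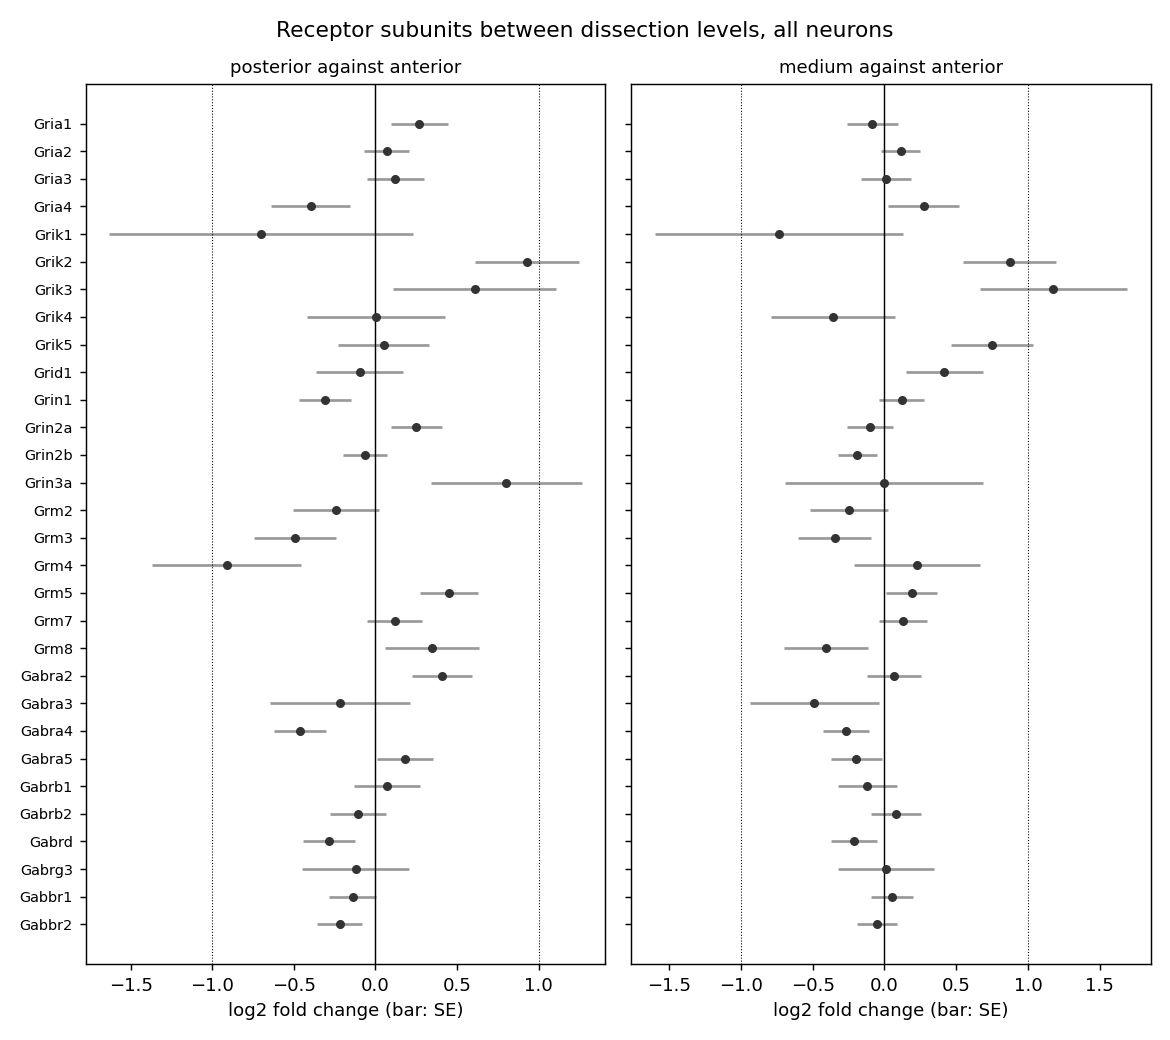
Log2 fold change with its SE of 30 tested members between the posterior and anterior levels (left) and between the medium and anterior levels (right) of all neurons, with dotted lines at 1 either way. Grik3 at the medium level, with a log2 fold change of 1.18 and an SE of 0.51, was the only member shown past a dotted line, and it was not called.

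In the sections, zones of spots were drawn with each gene centred within its section and without the receptor genes, and 8 zones (1922 spots) entered the comparison. Spots hold RNA of several cells, so fewer cells of a type and less RNA per cell cannot be told apart. Of 36 members tested, 14 were called in at least 1 zone, against 11.9% of 10610 genes. Zone 3, whose leading genes include Calb2, Trh and Dlk1, had 3 members called higher and 1 lower, against 2.5% and 2.78% of all genes. Zone 5 had 3 called higher and 3 lower, against 1.66% and 1.47%, zone 1 had 1 higher and 3 lower, against 1.18% and 0.773%, and zone 2 had 2 higher and 1 lower, against 0.848% and 0.594%. Zones 4, 7 and 8 had 2, 2 and 1 called higher, against 1.58%, 2.35% and 1.15%, and 0 called lower. In zone 3, Gabra2 stood at 122 CPM (S4) and 219 CPM (S8), and at means of 39.1 and 61.7 CPM over the other zones (edgeR adjusted p = 1.86e-11, log2 fold change 1.89, SE 0.15). Grin3a, an NMDA subunit that reduces calcium entry, stood there at 79.5 and 82.3 CPM against 21.4 and 25.9 CPM (edgeR adjusted p = 1.09e-08, log2 fold change 1.86, SE 0.20). Gria1 stood at 351 and 371 CPM against 179 and 185 CPM (edgeR adjusted p = 2.79e-09, log2 fold change 1.01, SE 0.10). In zone 1, led by Cux2, Grin3a was lower, at 14.3 and 4.96 CPM (edgeR adjusted p = 0.00103, log2 fold change -1.47, SE 0.30).

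Grik3 was higher in zone 5, whose leading genes include Foxp2, at 79.6 CPM in S4 and 90.7 CPM in S8 (edgeR adjusted p = 2.72e-08, log2 fold change 1.56, SE 0.17). It was higher in zone 2, led by Nnat and Ccn2 (79.3 and 47.5 CPM; log2 fold change 1.12, SE 0.18), and lower in zone 1 (12.97 and 13.9 CPM; log2 fold change -1.49, SE 0.25). In zone 5, Gabra2 was lower (17.6 and 17.7 CPM; edgeR adjusted p = 3.6e-06, log2 fold change -1.79, SE 0.25), as were Grm2 (5.55 and 18.8 CPM; log2 fold change -1.56, SE 0.31) and Grm7 (12.95 and 12.2 CPM; log2 fold change -1.40, SE 0.26). The summed markers of oligodendrocytes were highest in that zone, at 5345 CPM against 831 to 3373 CPM in the other 7, and their part in these differences was not tested. Gabrd and Gabra5 took opposite places: Gabrd was higher in zone 1 (99.8 and 120.0 CPM; log2 fold change 1.08, SE 0.14) and lower in zone 2 (28.9 and 21.9 CPM; log2 fold change -1.26, SE 0.21), while Gabra5 was lower in zone 1 (25.9 and 17.9 CPM; log2 fold change -1.23, SE 0.20) and higher in zone 2 (111 and 86.6 CPM; log2 fold change 1.23, SE 0.15). Grm2 was higher in zone 8, led by Rorb (57.8 and 75.4 CPM; log2 fold change 1.31, SE 0.25), and lower in zone 3 (15.7 and 16.9 CPM; log2 fold change -1.03, SE 0.29). Without the section as a block these calls of Grm2 in zones 8 and 3 were lost (edgeR adjusted p = 0.0526 and 0.12), and that in zone 3 also with DESeq2 (adjusted p = 0.0898) or with zones drawn from all genes (log2 fold change -0.95).

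Zone 7, led by Ptgds, Mgp and Myoc, had the highest sum of astrocyte markers (1079 CPM, against 359 to 624 CPM in the other zones) and of endothelial and mural markers (200.1 CPM against 78.8 to 115 CPM). Grm3 was higher there, at 23.5 CPM (S4) and 56.1 CPM (S8), with other zones at 10.4 and 15.3 CPM (edgeR adjusted p = 0.00175, log2 fold change 1.62, SE 0.34). The part of these markers in that difference was not tested. Gabrg1, a gamma subunit, was also higher in zone 7 (43.3 and 47.5 CPM, with other zones at 24.0 and 20.4 CPM; edgeR adjusted p = 0.00718, log2 fold change 1.10, SE 0.26). The remaining called members, named after their values were seen, included Grm4 in zone 4, led by Tshz2 (log2 fold change 1.51), and Grik4 and Grm8 in zone 5 (1.09 and 1.10), all higher. With DESeq2 the calls of Grik4 and Grm8 were lost (adjusted p = 0.191 and 0.318), and Grm4 was given no adjusted p. Without the section as a block that of Grm8 was lost (edgeR adjusted p = 0.0825). Of the 34 members tested in both assays, 11 were called both in a cluster and in a zone, which is 64.7% of the 17 called in clusters and 84.6% of the 13 called in zones. Of the 9030 genes tested in both, 610 were called in both, which is 35.8% of the 1704 called in clusters and 63.3% of the 964 called in zones, and the difference between the members and all genes was not tested.

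**Figure D4:**
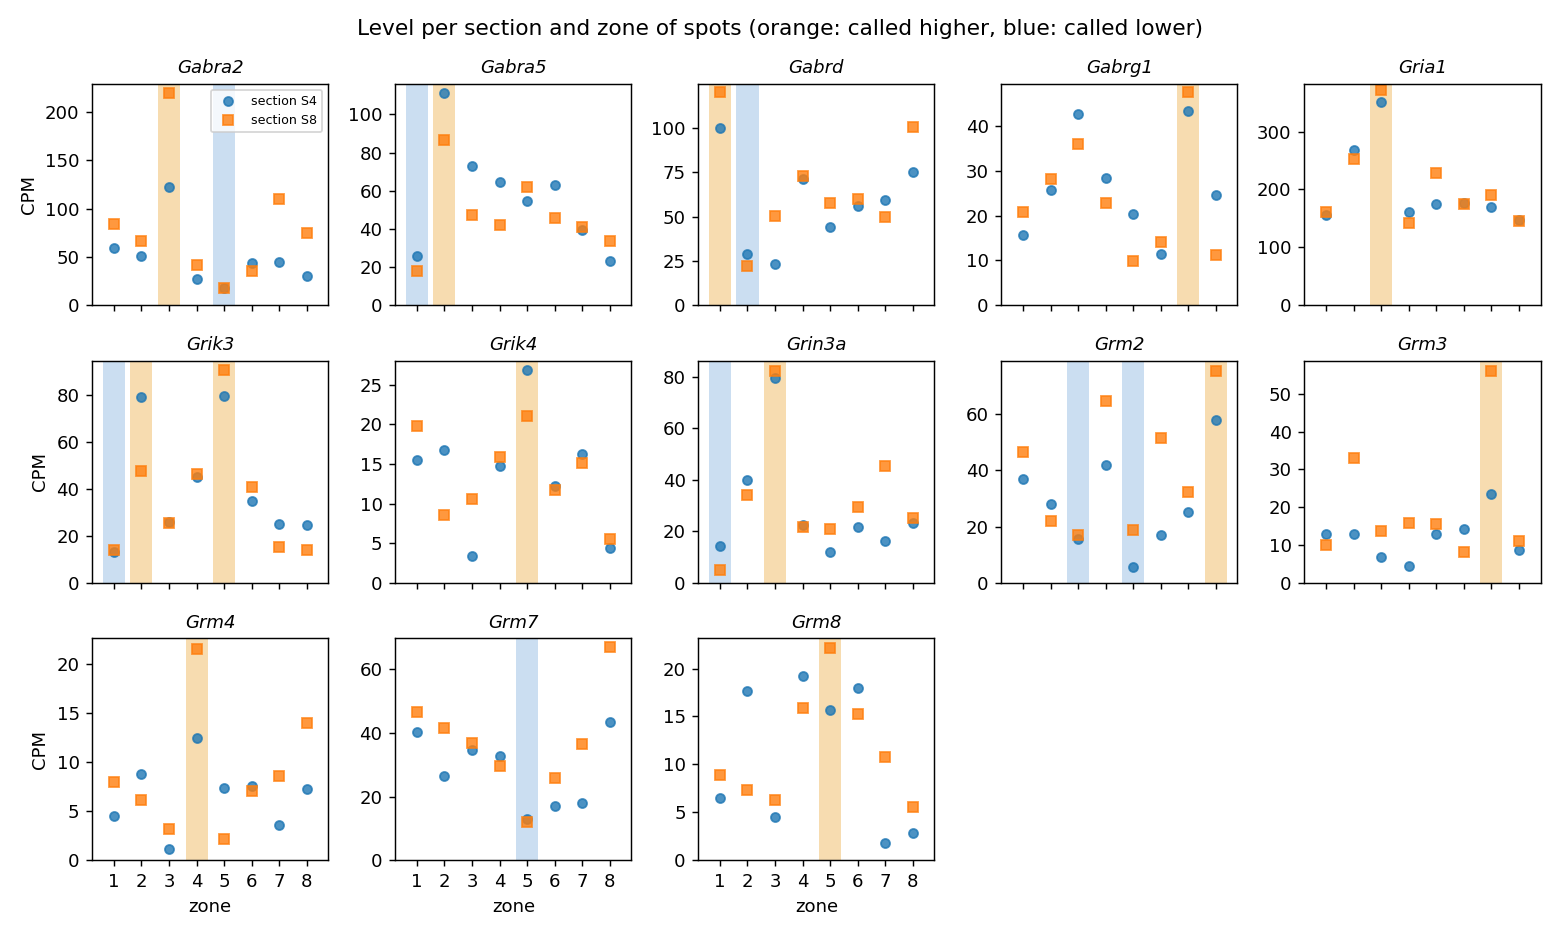
Level in CPM (linear axes from 0) of 13 members called in a zone, with 1 symbol for each of 2 sections in each of 8 zones; orange marks a zone called higher and blue one called lower. Gabra2 stood at 122 and 219 CPM in zone 3 and at 17.6 and 17.7 CPM in zone 5.

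Over all cells and all spots, the 37 shared genes summed to 4809 ± 78.7 CPM in neurons (SD, n = 3 animals) and to 3974 and 3990.0 CPM in S4 and S8, a ratio of 1.21. With totals taken without mitochondrial genes and Gm42418 the ratio was 1.04. Single members differed far more. Gabrb2 stood at 238 ± 14.6 CPM in neurons but at 2.96 and 5.79 CPM in the sections, a ratio of 54.4. Next were Gabrd, Grm4, Grm7 and Grm3, with ratios of 3.45, 3.41, 3.24 and 2.86. In the other direction, Gabrg1 stood at 0.743 ± 0.264 CPM in neurons and at 24.1 and 22.7 CPM in the sections, 31.5 times higher, and Grin2d at 0.361 ± 0.336 CPM against 3.91 and 9.70 CPM, 18.9 times higher. Gabra3, Grik5 and Grik3 followed, at 3.96, 3.83 and 2.23 times. The levels of Gabrg1 and Grin2d in neurons rested on 73 and 59 counts, in 13 and 10 cells. The sections hold cells other than dissociated neurons, and the part of these cells in the ratios was not tested. Among the 12 names in the section table only, Grin2c was at 25.5 and 34.4 CPM, Gabre, Gabrp and Gabrr3 had 0 counts, which allows up to 0.356 CPM in S4 and 0.47 CPM in S8 (3 counts), and the other 8, among them Gabra6, Gabrq, Gabrr1, Gabrr2, Grin3b and Grm6, stood at 1.57 CPM or lower in each section. Every gene of the cell table had a count in at least 10 cells, so genes under that number were not in it.

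**Figure D5:**
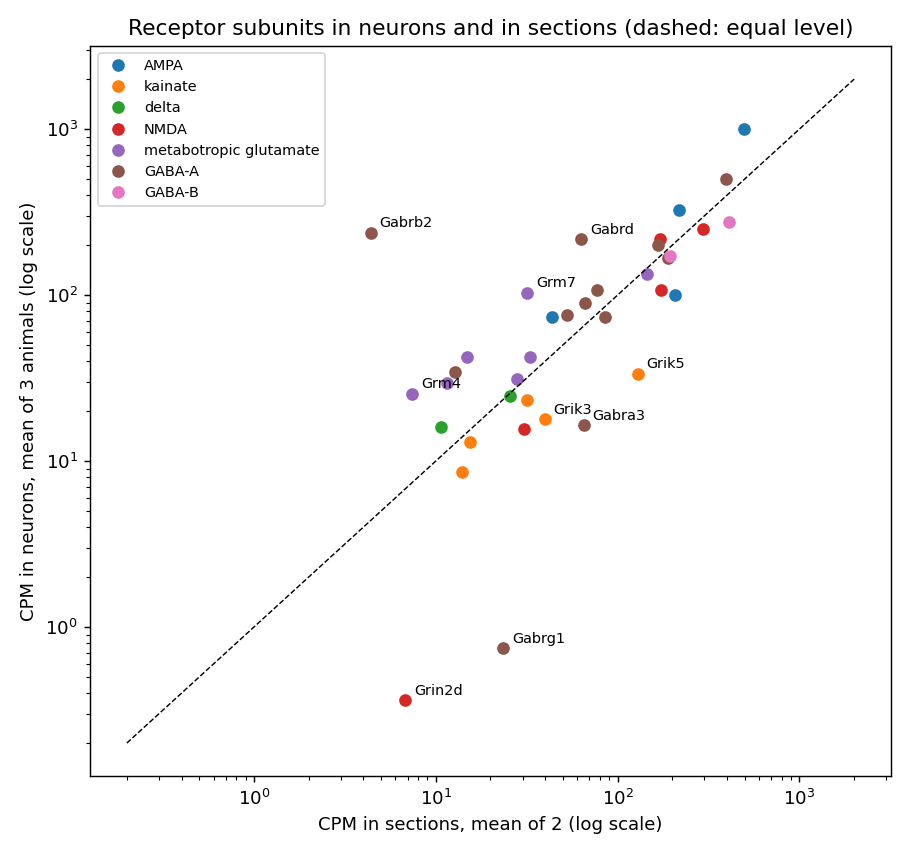
Mean level of the 37 shared members in neurons (3 animals) against sections (2), in CPM on log axes, colored by family, with a dashed line at equal levels. Gabrb2 lies far above the line, at 238 CPM in neurons and 4.38 CPM in sections, and Gabrg1 and Grin2d lie far below it.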

How the data were processed

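Counts per gene were measured in dissociated neurons and in spots of 2 sections. The values of both deposited tables are whole-number counts with no normalization. Per the submitters' processing notes, Seurat with NCBIM37 is named for the cells, and Seurat, Space Ranger, NCBIM37 and mm10 for the sections. The aligner, the annotation, the filters on cells and whether the cell counts are reads or molecules are not given in the sources used here, so counting intervals cover counting error only. A deposited table gave each cell's animal, and the cell names gave its sample and dissection level (0 count columns were left without a sample). The genes examined, the lists and the tests were chosen with earlier results of these data known.

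Clustering of cells and of spots used scanpy 1.11.5 (Python 3.11.15): counts scaled to 10000 and logged, 2000 variable genes, 30 components, 15 neighbours, Leiden resolution 1, seed 1. No doublet caller was run. Spots under 500 genes (4) were left out. A cluster was given a layer name where at least 3 markers of that type led by a log2 of 1 and some were among its 10 leading genes. Genes of another type could not be more frequent among those 10. Smooth muscle genes were counted as another type, although no marker list held them. Cluster 3 led in the layer 5 extratelencephalic markers, with Pvalb among its leading genes, and cluster 5 in the layer 6 corticothalamic markers, with more smooth muscle genes than such markers among its leading genes, and both stayed unnamed. Cluster 6 led in the layer 5 extratelencephalic markers Fezf2, Parm1 and Chst8 but not in Bcl11b. It had none of them among its leading genes and was also left unnamed.

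Counts were summed per animal and cluster (at least 10 cells) or section and zone (at least 10 spots), and the sums were fitted in edgeR 4.0.16 (R 4.3.3) by glmQLFit after filterByExpr and TMM, with the animal or section as a block, and tested by glmQLFTest. The block was used since each animal gave sums for several clusters, though not every animal gave a sum for every cluster. Each cluster was compared with the mean of the others, and p-values were adjusted over all genes tested (Benjamini-Hochberg). A call needs a log2 fold change of 1 or more either way and an adjusted p under 0.05. The SE is the log2 fold change divided by the square root of F. CPM of members and associated genes over clusters, levels and zones use TMM library sizes. Totals are used in the comparison of the assays, for cell type markers and for clusters outside the comparison. Marker levels of clusters are means over cells, and member levels of clusters outside the comparison are pooled over cells. DESeq2 1.42.0 was an alternative. The edgeR fit was tried on simulated counts for 1 cluster, 1 level and 1 zone, each against the mean of the others. The other steps, among them the clustering, the test over all clusters and DESeq2, were not tried in this way. Whether counting used strand is not given in the sources used here, so reads of overlapping or antisense genes, such as Grin1 and Grin1os, cannot be told apart. Named were called members in order of adjusted p (up to 25 over clusters and 10 over zones), main AMPA, NMDA, Grm5, GABA-A and GABA-B subunits, the 5 largest ratios each way between assays and 6 associated genes. Some genes that enter the counts are not reported here by name or drawn in the plots.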

Additional observations from a re-analysis of the deposited data

How the results depend on the processing

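Over the alternatives, the count of members called in a cluster (17) lay between 14 (sums per sample) and 22 (DESeq2), and that of members varying over clusters (21) between 17 and 28. Leaving out each animal gave 15 to 17 and 17 to 18. Without cluster 8, an alternative chosen after seeing the data, the counts were 21 and 24. Without the animal as a replicate block they were 19 and 20, the associated genes 8, and the dissection levels 0. Members called in a zone (14) numbered 10 with DESeq2, 12 without the section as a block and 16 with no filter on low counts. The 8 associated genes called became 5 with sums per sample and 4 to 7 when each animal was left out. The ratio of summed levels of neurons to sections, 1.21, was 1.04 without mitochondrial genes and Gm42418. None of the 39 cluster calls or 22 zone calls of members changed direction under any alternative that gave a value. Of the cluster calls, 11 of 25 were lost with sums per sample, 9 of 39 without the 77 shallowest cells, and 9 of 34, 12 of 30 and 11 of 35 without animals 1, 2 and 3. The cause of these losses was not tested, and those settings hold fewer cells or spread them over more sums. No value was given for clusters 4, 5 and 8 with sums per sample, for clusters 6, 7 and 8 where every cluster had to be in all 3 animals, or for a cluster left with 1 animal. Groups of 3 animals and 2 sections are too small for a check of outlying samples. Labels do not say whether sections came from separate animals, so p-values over zones measure the spread between these 2 sections.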

Other observations

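Clusters too small for the comparison gave pooled levels without a test. In cluster 11 (10 cells, led by Kcnip1, Nxph1 and Pvalb), Grik1 stood at 72.2 CPM (64.8 to 91.6 CPM over 3 animals), close to its level in cluster 2. Grm4 stood there at 83.1 CPM (0 to 99.6 CPM) and Gabbr2 at 14.3 CPM (0 to 20.4 CPM). Animals 1, 2 and 3 gave 1, 3 and 6 cells of cluster 11. Gabbr2 stood at 70.0 CPM in cluster 12, 108 CPM in cluster 10 and 230 CPM in cluster 9. Gad1 had 0 counts in the 10 cells of cluster 11 and Gad2 stood there at 1.70 CPM. In cluster 10 (11 cells, layer 6b-like), Grik3 stood at 84.0 CPM and Grin2a at 12.9 CPM. In cluster 9 (26 cells, led by Ccdc80), Grik3 stood at 46.7 CPM. Cluster 12 (5 cells, led by genes of oligodendrocytes such as Mog) held Gabrd at 324 CPM (157 to 612 CPM over 3 animals) and Gabra2 at 4.37 CPM. Slc17a7 had a count in 100% of these cells (mean 93.2 CPM). The source of their oligodendrocyte genes was not tested, so these levels cannot be assigned to oligodendrocytes.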
